A study of Mus musculus with 22 samples.

Results

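The genes described here are 10 genes of the ventral midline of the mouse embryo: Shh, Foxa1, Foxa2, Foxj1, Chrd, Ptch1, Gli1, Nkx2-2, Nkx6-1 and Olig2. They were chosen by symbol as genes of the node, notochord and floor plate and as targets of Shh, with earlier results of these data known. All 10 were found among the 37680 genes of the count table. RNA was sequenced from 22 pools of whole C57BL/6 embryos of 2 transgenic lines, with the genotypes ROSA26tg/+; Oct4tg/+ and ROSA26tg/+; Nanogtg/+, in which doxycycline switches on the pluripotency factor Oct4 or Nanog. At E9.5 the Oct4 line had 3 induced and 3 control pools and the Nanog line 3 induced and 2 control pools, each of 3 embryos. At E7.5 the Oct4 line again had 3 induced and 3 control pools and the Nanog line 3 induced and 2 control pools, each of 8 to 12 embryos. The mothers of induced E9.5 embryos drank doxycycline in their water from E6.5 on, and those of induced E7.5 embryos were injected with it at E4.5 and then drank it. Controls carried the same alleles and were not given doxycycline, and no group received doxycycline without a transgene. The tissue, the cell type or the promoter that limits expression of the transgene is not given in the labels.

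Shh is a secreted ligand made by the node, the notochord, the floor plate and later the gut. It binds the receptor Ptch1, which otherwise holds the transducer Smo inactive, and thereby turns on the Gli factors. Ptch1 and Gli1 are themselves direct targets of the pathway and serve as its readout. In the ventral neural tube graded Shh sets the domains of Nkx2-2 (V3 progenitors), Olig2 (motor neuron progenitors) and the broader Nkx6-1. Foxa2 is needed to form the node and the floor plate, Foxj1 drives the motile cilia of the node, and Chrd is a secreted antagonist of BMP made by the organizer and the notochord.

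Library totals ran from 4.72 to 42.3 M counts, and 3 counts, the limit that a count of 0 allows, were 0.0709 to 0.636 CPM (counts divided by the library total in M counts). Pou5f1, the gene of Oct4, read 257 to 283 CPM in induced Oct4 E9.5 pools and 0.423 to 1.29 CPM in their controls, and 477 to 606 CPM in induced Oct4 E7.5 pools and 203 to 242 CPM in their controls. Nanog read 348 to 354 CPM in induced Nanog E9.5 pools and 2.06 to 2.35 CPM in their controls, and 53.9 to 117 CPM in induced Nanog E7.5 pools and 17.2 to 22.8 CPM in their controls. At E7.5 each induction also went with more of the other factor. Pou5f1 read 460 to 581 CPM in induced Nanog E7.5 pools and 222 to 245 CPM in their controls. Nanog read 24.3 to 34.0 CPM in induced Oct4 E7.5 pools and 17.2 to 20.5 CPM in their controls. At E9.5 the other factor overlapped between induced and control pools in both lines. The induced Nanog E7.5 libraries stood apart in 1121 gene models under 80 bases, which summed to 0.575 to 1.13 CPM there and to 31.3 to 36.8 CPM in their controls. The other 6 E7.5 libraries held 29.0 to 51.9 CPM and the E9.5 libraries 0.634 to 2.02 CPM of such models. Without such models and the mitochondrial genes no call of a member changed, but a difference between libraries in other genes would remain. At Nanog E7.5 such a difference cannot be told apart from induction, nor from stage between the controls. Mitochondrial genes held 5.27% to 8.26% of counts in induced Nanog E7.5 libraries and 3.30% and 3.63% in their controls, without overlap, and 3.81% to 5.41% and 4.07% to 5.51% in the induced and control Oct4 E7.5 libraries. Whole embryos were measured, so fewer cells of a type and less RNA per cell cannot be told apart.

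Per kilobase of exon, the scale on which genes can be compared, Ptch1 was the most abundant of the 10 genes in 7 of the 8 groups. In E9.5 controls of the Oct4 line it averaged 30.1 CPM per kb, followed by Gli1 at 15.4, Shh at 7.93, Nkx6-1 at 6.62 and Olig2 at 5.94 CPM per kb. In E7.5 controls of that line Ptch1 averaged 18.0 CPM per kb, and Foxa2 at 10.2 and Foxj1 at 8.21 CPM per kb came next. In induced Oct4 E7.5 pools Foxj1 (13.6 ± 1.02 CPM per kb) and Foxa2 (13.2 ± 1.85) averaged more than Ptch1 (10.5 ± 2.30 CPM per kb, SD, n = 3). Their SDs overlapped that of Ptch1, but within each of the 3 pools both genes read higher than Ptch1.

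**Figure D1:**
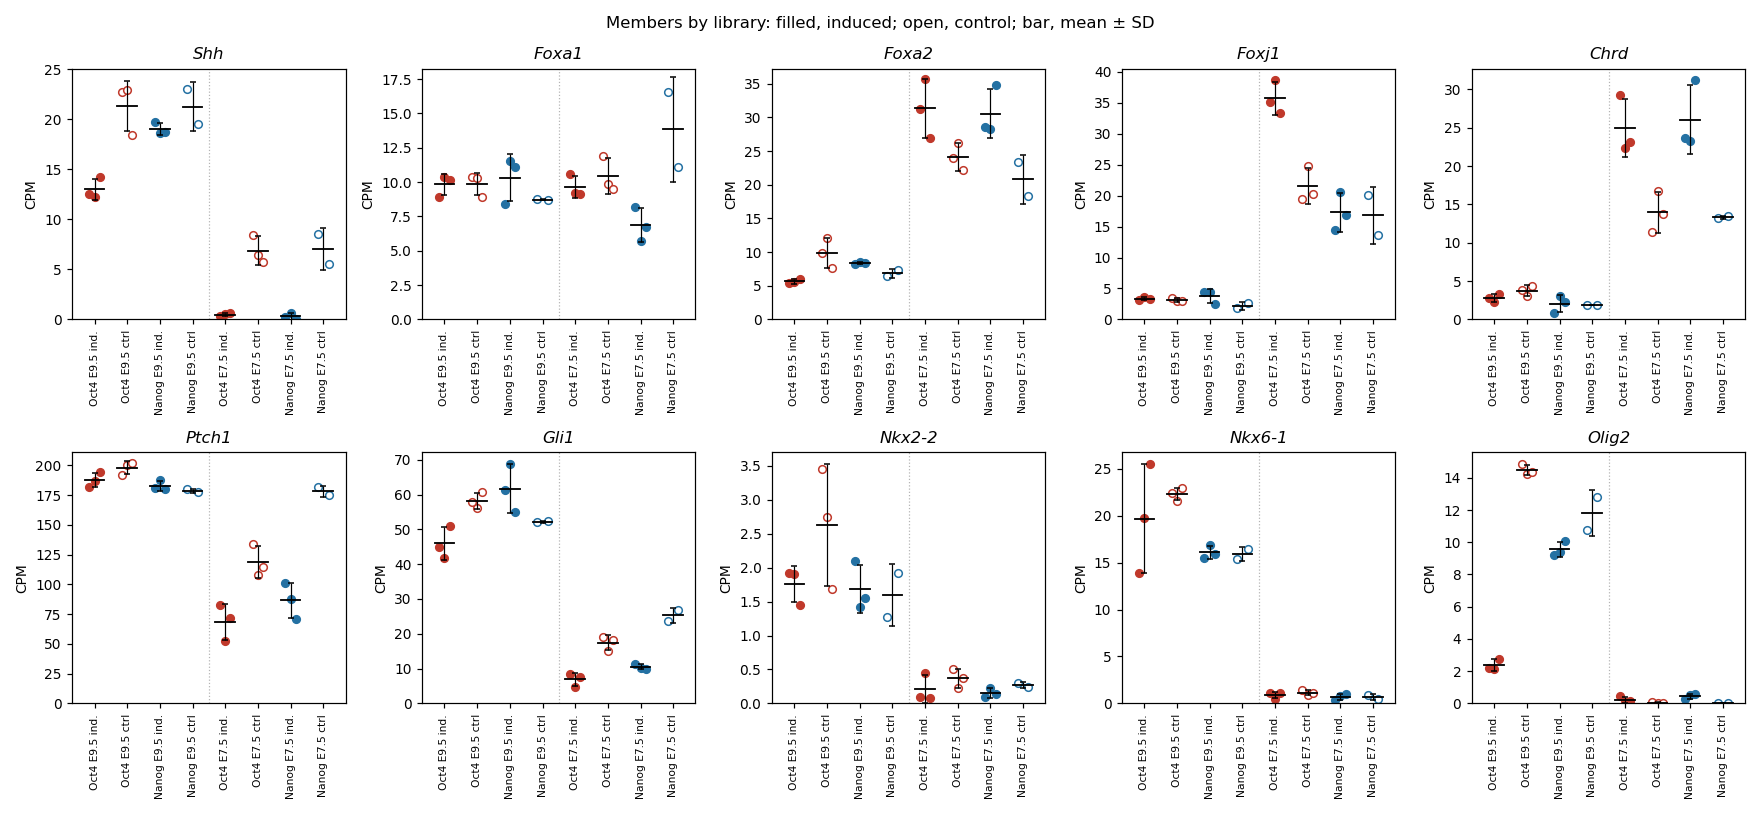
CPM of the 10 genes in each library, by line, stage and treatment; points are pools, and bars the mean ± SD of a group. Shh sat at 0 to 0.654 CPM in the 6 induced E7.5 pools, against 5.56 to 8.57 CPM in the 5 E7.5 controls, and Olig2 at 2.12 to 2.78 CPM in induced Oct4 E9.5 pools, against 14.3 to 14.8 CPM in their controls.

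All 10 are protein-coding genes. On NCBIM37, the build of the counted annotation, Shh lies at chr5:28783355-28793641, Foxa1 at chr12:58641618-58647108, Foxa2 at chr2:147868613-147872705, Foxj1 at chr11:116192018-116196713, Ptch1 at chr13:63610261-63674474, Gli1 at chr10:126766945-126778645, Nkx2-2 at chr2:147003282-147019979 and Nkx6-1 at chr5:102087158-102094245, all on the minus strand. Chrd at chr16:20733200-20742457 and Olig2 at chr16:91225795-91228922 lie on the plus strand. The sequences below are from another build, GRCm38.p6, whose positions cannot be set beside these.

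RefSeq promoter windows (GRCm38.p6, 250 bases before to 50 after a start site) were found for 7 of the 10 genes, in 9 windows. The windows of 3 genes are shown, those of Olig2, Ptch1 and Foxa1. Each of them changed in an induction described below, as did Chrd and Foxa2, whose windows are not shown. Capitals mark the motif found, and positions count from the start site.
Foxa1 window, chr12:57546062-57546361, minus strand: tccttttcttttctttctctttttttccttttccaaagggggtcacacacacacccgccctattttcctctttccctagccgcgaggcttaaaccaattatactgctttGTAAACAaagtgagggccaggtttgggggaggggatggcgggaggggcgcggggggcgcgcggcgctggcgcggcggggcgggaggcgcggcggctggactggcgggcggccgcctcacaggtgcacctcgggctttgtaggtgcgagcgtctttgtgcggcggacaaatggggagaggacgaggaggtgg
Ptch1 window, chr13:63565686-63565985, minus strand: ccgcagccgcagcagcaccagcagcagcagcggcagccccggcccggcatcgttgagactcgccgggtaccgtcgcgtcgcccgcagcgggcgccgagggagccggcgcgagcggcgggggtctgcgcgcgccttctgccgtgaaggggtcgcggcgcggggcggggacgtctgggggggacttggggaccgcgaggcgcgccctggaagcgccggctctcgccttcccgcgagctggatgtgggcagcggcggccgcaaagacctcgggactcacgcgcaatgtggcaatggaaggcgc
Olig2 window, chr16:91225300-91225599, plus strand: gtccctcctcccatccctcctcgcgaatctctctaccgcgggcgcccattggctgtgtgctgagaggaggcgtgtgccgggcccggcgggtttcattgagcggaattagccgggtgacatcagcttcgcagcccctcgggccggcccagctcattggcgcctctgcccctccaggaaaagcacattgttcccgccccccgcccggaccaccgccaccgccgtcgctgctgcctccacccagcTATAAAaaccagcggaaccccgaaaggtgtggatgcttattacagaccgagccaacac
Both strands were searched for the Gli motif TGGGTGGTC, the forkhead motif TGTTTAC, the octamer ATGCAAAT of POU factors such as Oct4, and TATAAA, and no match overlapped another. The Foxa1 window held the forkhead letters on the opposite strand from position -141, as did 3.65% of all 32851 windows. The Olig2 window held TATAAA on its own strand from position -8, and 1 Foxa2 window held it on the opposite strand from position -208; 13.6% of all windows hold these letters. The Gli letters and the octamer were found in none of the 9 windows, against 0.253% and 1.74% of all windows. The Ptch1 window was 76.3% G and C, the Olig2 window 65% and the Foxa1 window 62.3%, against a median of 52.7% over all windows.

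The controls give the course of these genes in embryos without doxycycline. Between the stages Foxa2, Foxj1 and Chrd fell and Shh, Gli1, Nkx2-2 and Nkx6-1 rose in both lines. In the Oct4 line 6 of the 10 genes were called higher at E9.5 and 3 lower, where 36.5% of 15770 genes tested were called higher and 37.1% lower. In the Nanog line 5 were called higher and 4 lower, where 31.8% and 32% of 14872 genes were. Scaling by library totals in place of TMM moved the median log2 fold change of all genes in the Oct4 line to 0.18, against -0.02, and the calls to 7145 higher and 4459 lower, against 5751 and 5844, with 6 members higher and 3 lower as before. A gene was called at an adjusted p under 0.05 in edgeR's quasi-likelihood test, the source of every adjusted p given here unless another tool is named.

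Shh averaged 21.3 ± 2.53 CPM in E9.5 and 6.87 ± 1.42 CPM in E7.5 controls of the Oct4 line (log2 fold change 1.45 ± 0.15 SE, adjusted p = 7.00e-06). Shh in Nanog controls averaged 21.3 ± 2.48 CPM at E9.5 and 7.06 ± 2.12 CPM at E7.5 (1.55 ± 0.19). Gli1 rose in both lines, by 1.54 ± 0.09 and 0.98 ± 0.09 on the log2 scale. Ptch1 averaged 198 ± 5.12 CPM at E9.5 and 119 ± 13.6 CPM at E7.5 in Oct4 controls (0.54 ± 0.07, adjusted p = 3.92e-05), and 179 ± 1.52 and 178 ± 4.69 CPM in Nanog controls (-0.06 ± 0.06, adjusted p = 0.365), where the sign turned (0.0024) without TMM scaling.

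Of the node genes, Foxj1 averaged 3.13 ± 0.281 CPM at E9.5 and 21.5 ± 2.87 CPM at E7.5 in Oct4 controls, and fell by 2.99 and 2.98 on the log2 scale in the Oct4 and Nanog lines. Chrd fell by 2.13 and 2.89, and Foxa2 by 1.45 and 1.66. Foxa1, a paralog of Foxa2 that marks endoderm and the ventral midline, fell in the Nanog controls (-0.71 ± 0.19, adjusted p = 0.0057) and did not pass in the Oct4 controls (-0.27 ± 0.13, adjusted p = 0.0819). The difference between the lines was not tested. The Nanog call was lost without Nanog E7.5 control 2 (adjusted p = 0.0894), the library with the highest Foxa1 value of all, 16.5 CPM.

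The 3 neural tube factors were low at E7.5. Nkx6-1 averaged 22.3 ± 0.673 CPM at E9.5 and 1.13 ± 0.245 CPM at E7.5 in Oct4 controls (4.12 ± 0.16) and rose by 4.5 ± 0.28 in Nanog controls. Nkx2-2 averaged 2.63 ± 0.893 CPM at E9.5 and 0.372 ± 0.141 CPM at E7.5 in Oct4 controls (2.66 ± 0.36) and rose by 2.48 ± 0.62 in Nanog controls, a call lost without Nanog E9.5 control 3 (adjusted p = 0.0647). Olig2 had 446 counts at E9.5 and 3 at E7.5 over the 3 Oct4 controls each, a ratio, in CPM of the summed counts, of 536 (95% interval 182 to 2611, counting error only), and of 1184 without E7.5 control 1 and 346 without E7.5 control 2. Nanog controls had 371 Olig2 counts at E9.5 and 0 at E7.5. Set against 3 counts over the E7.5 group the ratio was 59.5, and 33.6 and 25.9 without E7.5 control 2 or control 3. The counting error of the E9.5 counts is left out of these ratios.

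**Figure D2:**
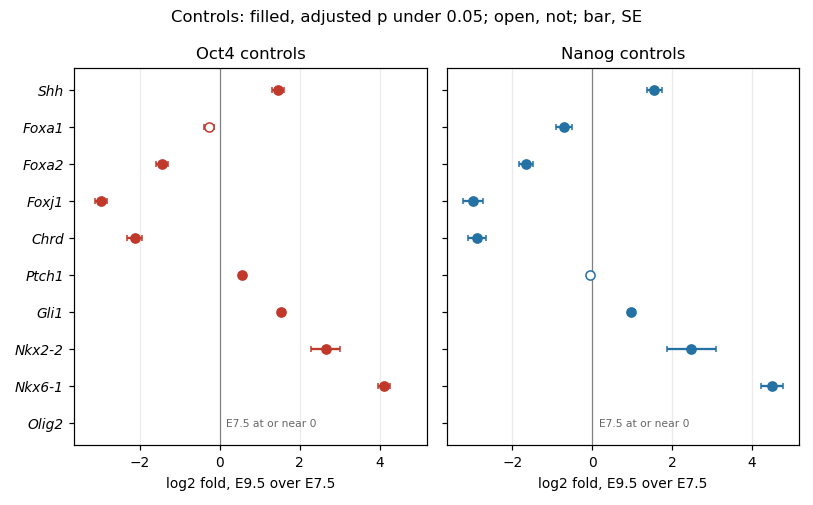
Log2 fold change of each gene from E7.5 to E9.5 controls (E9.5 over E7.5, bars are SE) in the Oct4 and Nanog lines; filled points passed the test. The node genes Foxa2, Foxj1 and Chrd lie below 0 and Shh, Gli1, Nkx2-2 and Nkx6-1 above 0 in both lines, while Olig2, called higher in both lines, is not drawn since its fitted value rests on 3 and 0 counts at E7.5.

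The other genes of these tissues were counted in lists. Of the floor plate and ventral neural tube list, 15 of 15 tested genes were higher at E9.5 in Oct4 controls and 13 of 14 in Nanog controls, with median log2 fold changes of 3.52 and 2.54, against -0.02 and 0.01 over all genes. Of the node and notochord list, 15 of 19 and 14 of 18 were lower. The visceral endoderm list, an extraembryonic tissue that also makes Foxa1 and Foxa2, summed to 119.8 to 132 CPM in E9.5 and 4816 to 5911 CPM in E7.5 controls of the Oct4 line, with 15 of 15 genes lower; its part in the fall of Foxa2 was not tested.

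At E7.5 Shh, Ptch1 and Gli1 fell and Chrd rose after induction of either factor. After Oct4 induction 9 of the 10 genes passed the filter on low counts, and 2 were called higher and 3 lower, where 2.25% and 3.91% of 16071 genes tested were. After Nanog induction 7 passed it, and 1 was called higher and 4 lower, where 2.96% and 4.82% of 14118 genes were. In the Nanog line the counts rest on its 2 controls: 0 members were called higher and 1 lower, and 161 and 171 genes in all against 1099, without control 2 or control 3. In the Oct4 line 438 genes were called without control 3, 504 without control 1 and 584 without induced 3, against 991. With the replicate number as a block, which the main fit did not use, 3 members were called higher and 3 lower in the Oct4 line. There 471 of 16071 genes were called higher and 816 lower.

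Shh read 0.316, 0.539 and 0.613 CPM in induced Oct4 E7.5 pools and 8.47, 6.42 and 5.72 CPM in their controls (-3.80 ± 0.27, adjusted p = 0.000243). After Nanog induction it read 0.275, 0.654 and 0 CPM in induced pools and 8.57 and 5.56 CPM in controls (-4.02 ± 0.60, adjusted p = 0.00749). Every induced pool lay far below every control, and the ratio of means, induced over control, was 0.0712 in the Oct4 and 0.0438 in the Nanog line. The induced Nanog pools held only 3, 17 and 0 Shh counts, so depth limits the size of the Nanog ratio and fold change. The Oct4 call held without any 1 library; the Nanog call was lost without control 2 (adjusted p = 0.0872) or control 3 (0.0524), which leaves a single control. Shh overlaps 2 non-coding gene models of the opposite strand, which stayed at or below 0.704 CPM in every library.

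Gli1, the activator that reads out Hedgehog signalling, read 8.53, 4.79 and 7.44 CPM in induced Oct4 E7.5 pools and 19.2, 15.04 and 18.1 CPM in controls (-1.30 ± 0.19, adjusted p = 0.00434). After Nanog induction it read 11.3, 10.2 and 9.92 CPM in induced pools and 23.7 and 26.8 CPM in controls (-1.22 ± 0.15, adjusted p = 0.00236). The induced pools were the lower ones in both lines with no overlap. The Nanog call was lost without control 3 (0.055).

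Ptch1, the Shh receptor, read 82.3, 52.4 and 71.5 CPM in induced Oct4 E7.5 pools and 134, 108 and 115 CPM in controls (-0.76 ± 0.14, adjusted p = 0.0155). Nanog-line Ptch1 was 101, 87.2 and 71.0 CPM in induced pools and 182 and 175 CPM in controls (-0.99 ± 0.13, adjusted p = 0.00404). Again no induced pool reached a control, a lack of overlap toward lower values that 14.3% of genes tested showed in the Oct4 and 27.7% in the Nanog line. The Oct4 call was lost without induced 3 (0.0623), control 1 (0.079) or control 3 (0.0533), and the Nanog call without control 2 (0.0524).

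Chrd rose, and read 29.3, 22.4 and 23.1 CPM in induced Oct4 E7.5 pools and 11.4, 16.7 and 13.7 CPM in controls (0.87 ± 0.16, adjusted p = 0.0138). Nanog-line Chrd was 23.7, 23.3 and 31.2 CPM in induced pools and 13.2 and 13.5 CPM in controls (1.01 ± 0.17, adjusted p = 0.0107). The induced pools were all higher in both lines. The share of all genes that lay apart toward higher values at E7.5 is not given here. Calls were lost without Oct4 control 1 (0.0557) or control 3 (0.0686), and without Nanog control 2 (0.101) or control 3 (0.101). The gene overlaps Thpo on the other strand, which averaged at most 4.39 CPM in any group.

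Foxj1 read 35.2, 38.7 and 33.4 CPM in induced Oct4 E7.5 pools and 19.5, 24.8 and 20.3 CPM in controls. It rose by 0.77 ± 0.12 (adjusted p = 0.00753), and the call was kept in every fit without 1 library. Nanog-line Foxj1 was 14.4, 20.6 and 16.8 CPM in induced pools and 20.03 and 13.6 CPM in controls, which overlapped (0.11 ± 0.22, adjusted p = 0.822). Foxa2 read 31.3, 35.7 and 27.0 CPM in induced Oct4 E7.5 pools and 24.0, 26.3 and 22.2 CPM in controls. The Foxa2 difference did not pass the test (0.42 ± 0.13, adjusted p = 0.113), whereas with the replicate number as a block it did (0.41 ± 0.08, adjusted p = 0.0243). After Nanog induction Foxa2 read 28.6, 28.3 and 34.8 CPM in induced pools and 23.4 and 18.3 CPM in controls (0.60 ± 0.16, adjusted p = 0.0532), a difference that DESeq2 called (0.0353).

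Foxa1 read 8.16, 5.69 and 6.76 CPM in induced Nanog E7.5 pools and 16.5 and 11.1 CPM in controls (-0.97 ± 0.24, adjusted p = 0.0447). The induced pools were the lower ones, but the call was lost without control 2 (0.44), control 3 (0.0959), induced 3 (0.108) or induced 4 (0.0699). In the Oct4 line Foxa1 averaged 9.65 ± 0.823 CPM in induced pools and 10.4 ± 1.31 CPM in controls (-0.07 ± 0.13, adjusted p = 0.855). Beside this, the summed visceral endoderm list read 1599.9 to 2523 CPM in induced and 4101 to 4533 CPM in control Nanog E7.5 pools, with 8 of its 15 tested genes lower, among them Lrp2, an endocytic receptor (-1.45 ± 0.16), and Ttr, a thyroid hormone carrier (-0.81 ± 0.14). In the Oct4 line that list read 4311 to 5022 CPM in induced and 4816 to 5911 CPM in control pools. Its part in the Foxa1 result was not tested.

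The neural factors were low at E7.5, with Olig2 near the floor of 3 counts in most libraries. Nkx2-2 had 1 to 6 counts in Nanog E7.5 libraries and 2 to 16 counts in Oct4 E7.5 libraries. Nkx6-1 averaged 0.893 ± 0.357 CPM in induced and 1.13 ± 0.245 CPM in control Oct4 pools (adjusted p = 0.737), and Nkx2-2 0.211 ± 0.210 and 0.372 ± 0.141 CPM (adjusted p = 0.673). In the Nanog line neither passed the filter, with Nkx6-1 at 0.701 ± 0.321 CPM in induced and 0.689 ± 0.312 CPM in control pools and Nkx2-2 at 0.155 ± 0.0703 and 0.269 ± 0.0489 CPM. Olig2 passed the filter in neither line. It had 25 counts over the induced and 3 over the control Oct4 pools, a ratio, in CPM of the summed counts, of 9.26 (95% interval 2.83 to 47.9, counting error only). Of the 25 counts 18 came from induced 1, without which the ratio was 4.32 (0.987 to 25.9), and it was 20.4 without control 1 and 5.97 without control 2. Nanog-line Olig2 had 20 counts in induced and 0 in control pools. Set against 3 counts over the control group the ratio was 2.30, and 1.30 and 1.002 without control 2 or control 3. These ratios leave out the counting error of the induced counts, so they are no lower bounds. In 1 model over all 22 libraries Olig2 was tested and called higher in both lines (2.89 ± 0.61, adjusted p = 0.00274 after Oct4, and a fitted 5.98 ± 1.63, which is no bound, adjusted p = 0.0142 after Nanog). With no filter it did not pass (adjusted p = 0.0867 and 0.0831). Olig1, its neighbour of the same family, averaged 1.67 ± 0.495 CPM in induced and 0.157 ± 0.189 CPM in control Oct4 E7.5 pools (3.57 ± 0.61, adjusted p = 0.00932).

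**Figure D3:**
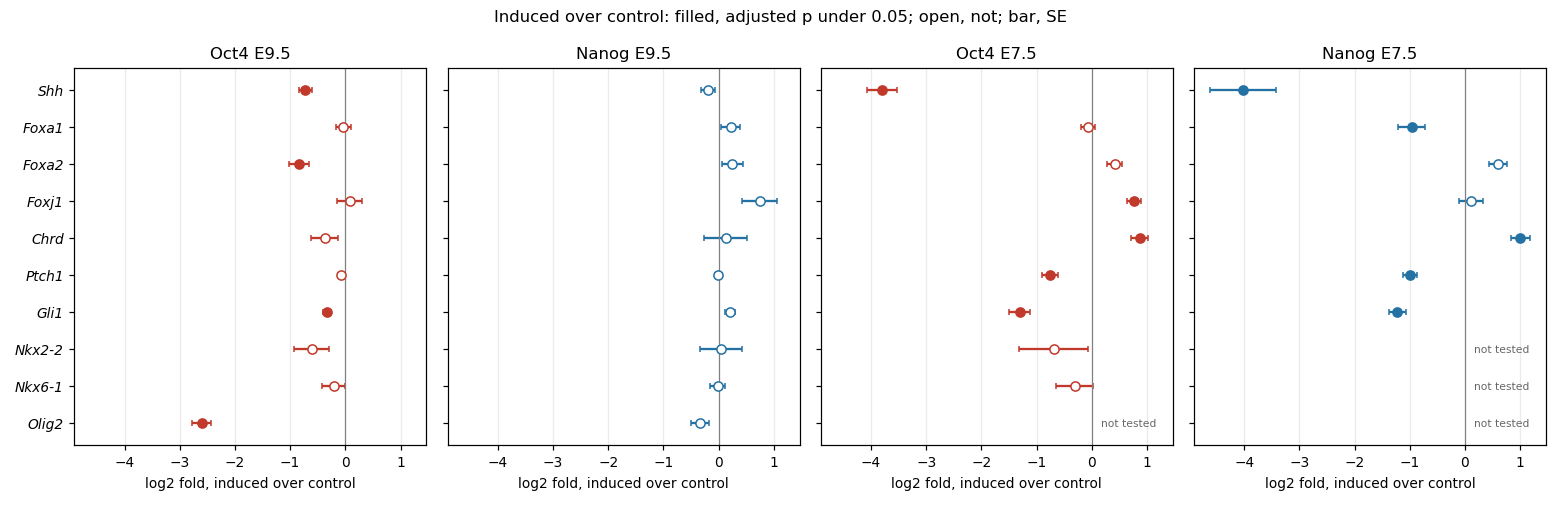
Log2 fold change of each gene, induced over control (bars are SE), in the 4 inductions on a common axis; filled points passed the test. At E7.5 Shh lies at -3.80 and -4.02 in the Oct4 and Nanog lines, while at E9.5 Olig2 lies at -2.60 in the Oct4 line and no gene passed in the Nanog line.

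The rest of the Hedgehog pathway moved less evenly at E7.5. After Oct4 induction 1 of 24 tested genes of the list was higher and 4 were lower, with a median log2 fold change of -0.26, against 0.02 over all genes. After Nanog induction 1 of 24 was higher and 6 were lower (median -0.48, against 0.00 over all genes). Gas1, a coreceptor that helps cells bind Shh and is itself repressed by the pathway, was the higher gene in both, at 76.6 ± 6.01 CPM in induced and 34.8 ± 1.90 CPM in control Oct4 pools (1.18 ± 0.10, adjusted p = 0.00037). Gas1 in Nanog-line embryos averaged 46.1 ± 7.30 CPM in induced and 31.3 ± 1.48 CPM in control pools (0.60 ± 0.14, adjusted p = 0.0375). Hhip, a decoy receptor and target of Hedgehog, averaged 0.506 ± 0.102 CPM in induced and 2.36 ± 0.706 CPM in control Oct4 pools (-2.16 ± 0.29). The coreceptor Boc (-0.95 ± 0.19), the target Foxf1a (-1.04 ± 0.20) and the cyclin gene Ccnd2 (-1.04 ± 0.22) also fell there. After Nanog induction Gli2 (-0.93 ± 0.17) and Gli3 (-0.79 ± 0.11), which carry the signal to the nucleus, fell with Ccnd2 (-1.39 ± 0.21) and Prkaca (-0.55 ± 0.11), a kinase that restrains the Gli factors. Hhip (-2.07 ± 0.48) and Sufu (-0.42 ± 0.09) fell after Nanog induction too.

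The node and notochord list held genes of both directions, 7 of 20 higher and 2 lower after Oct4 and 6 of 20 higher and 1 lower after Nanog induction, with medians of 0.08 and -0.13. Those that rose include the Nodal pathway genes Nodal (2.72 ± 0.20 and 3.17 ± 0.34 after Oct4 and Nanog) and Cer1 (1.17 ± 0.15 and 1.19 ± 0.18) and the organizer factor Lhx1 (2.52 ± 0.29 and 2.59 ± 0.39), which are also active in the epiblast, streak or endoderm. Gsc (3.03 ± 0.53 and 4.25 ± 0.90) and Lefty1 (4.29 ± 0.63 and 4.20 ± 0.93) rose too, from control means of 0.314 to 0.633 CPM. T averaged 302 ± 37.5 CPM in induced and 181 ± 29.1 CPM in control Oct4 pools (0.77 ± 0.13, adjusted p = 0.00959). After Nanog induction T did not pass. Noto, a transcription factor of the node and notochord, did not pass in either line, at 4.30 ± 0.311 CPM in induced and 6.07 ± 1.14 CPM in control Oct4 pools and 5.08 ± 1.44 and 6.24 ± 1.04 CPM in the Nanog line. The caudal factor Cdx2 fell in both (-0.99 ± 0.15 and -1.28 ± 0.19). Of the motile cilia list 1 of 20 tested genes rose and 2 fell after Oct4 induction, the 2 being the dynein genes Dnahc5 (-1.49 ± 0.24) and Dnaic2 (-1.34 ± 0.29), while Rfx3, a regulator of cilia genes, rose (0.42 ± 0.09). After Nanog induction 0 of 11 rose and 2 fell by edgeR, Dnahc5 (-2.19 ± 0.32) and Dnahc9 (-2.33 ± 0.52).

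Genes of other tissues moved beside these at E7.5. The sclerotome list, whose tissue arises from somites, had 3 of 4 tested genes lower after Oct4 and 2 of 4 after Nanog induction, with medians of -1.52 and -2.13. It summed to 18.8 to 26.5 CPM in induced and 39.5 to 49.3 CPM in control Oct4 pools, and to 7.77 to 17.2 CPM in induced and 50.4 to 57.4 CPM in control Nanog pools. Meox1, a somite factor, fell after Oct4 (-4.6 ± 0.29) and Nanog (-4.45 ± 0.26), as did Pax9 (-2.29 ± 0.26 and -2.74 ± 0.59).

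The lists named for neural tissues held calls in both directions. Their names are those of later tissues, and which tissue of the whole E7.5 embryos gave these values was not tested. Of the floor plate and ventral list 2 of 9 genes were higher and 2 lower after Oct4, and 1 of 7 higher and 3 lower after Nanog induction, with Spon1 higher (0.83 ± 0.19 and 0.95 ± 0.18) and Lmx1b lower (-1.56 ± 0.18 and -2.24 ± 0.28) in both. Of the motor neuron, V2 and V3 list 1 of 8 rose and 3 fell after Oct4 and 1 of 6 rose and 3 fell after Nanog, with Isl1 (-1.47 ± 0.16 and -1.11 ± 0.27) and Mnx1 lower in both. The dorsal list had 2 of 7 and 2 of 6 genes lower, Wnt3a in both (-1.08 ± 0.14 and -1.81 ± 0.29). The pan neural list had 0 of 10 higher and 2 lower after Oct4 and 1 of 8 higher and 1 lower after Nanog by edgeR, and summed to 145 to 202 CPM in induced and 208 to 281 CPM in control Oct4 pools, and to 179 to 215 CPM in induced and 234 CPM in both control Nanog pools.

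Of the gut list 2 of 13 genes were higher after Oct4, Trh and Epcam, and after Nanog Epcam was higher and Hnf4a, which is also in the visceral endoderm list, was lower among 11. The trophoblast list had Hand1 and Cdx2 lower of 7 after Oct4, and Elf5 higher and Cdx2 lower of 7 after Nanog induction. The maternal decidua and blood list had 2 of 11 genes higher after Oct4, Prf1 and S100a9. The part of these tissues in the Shh, Ptch1, Gli1 and Chrd results was not tested.

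**Figure D4:**
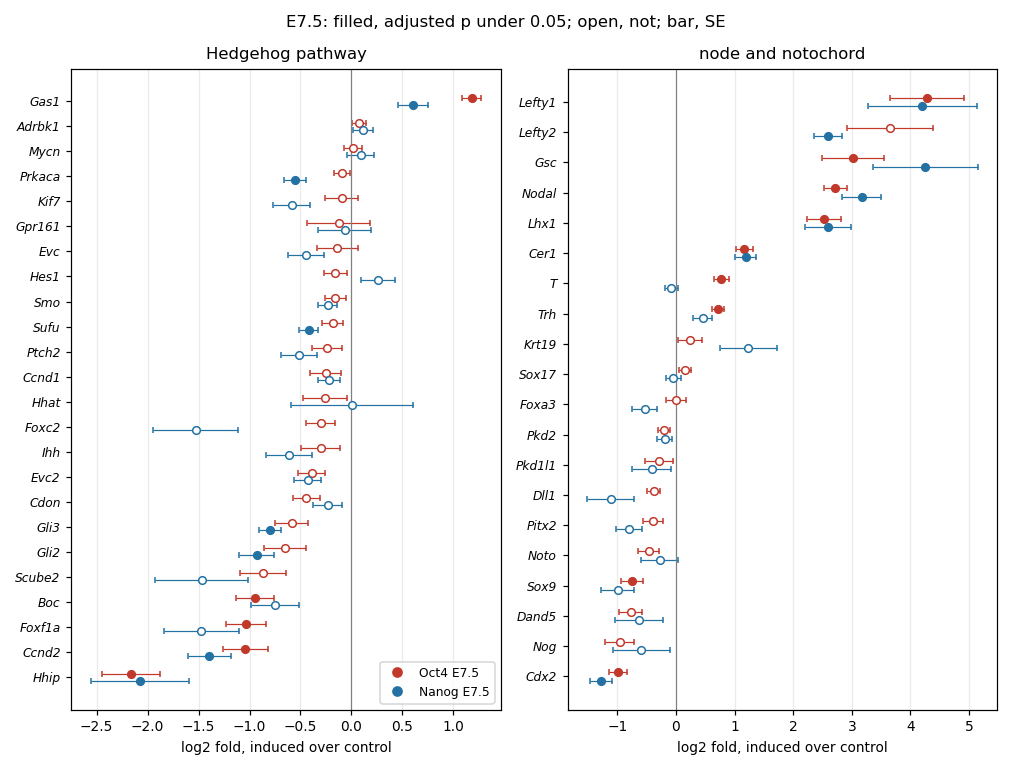
Log2 fold change at E7.5, induced over control (bars are SE), of the Hedgehog pathway list and the node and notochord list in the Oct4 and Nanog lines; filled points passed the test. Gas1 is the only called gene right of 0 in the Hedgehog panel, while Nodal, Lhx1 and Cer1 lie right of 0 in both lines in the node panel.

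At E9.5 Olig2, Shh, Foxa2 and Gli1 fell after Oct4 induction and no member passed after Nanog induction. After Oct4 induction 0 of the 10 genes were called higher and 4 lower, where 4.69% and 4.61% of 13957 genes tested were. Without induced 3 the count of members was 2. After Nanog induction 0 of the 10 were called, where 28.4% of 13305 genes were. Foxj1 and Gli1 had an unadjusted p under 0.05 there, and DESeq2 and limma-voom also called 0, while without induced 3 of the Nanog line 2 were called higher.

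Olig2 was the member with the largest change at E9.5. It read 2.21, 2.12 and 2.78 CPM in induced Oct4 pools and 14.8, 14.3 and 14.4 CPM in controls (-2.60 ± 0.17, adjusted p = 1.91e-08). The induced pools were tightly grouped and far below the controls, and the call held under every alternative run. Olig2 in the Nanog line read 9.22, 9.41 and 10.1 CPM in induced pools and 10.8 and 12.8 CPM in controls. The induced and control Nanog pools did not overlap, as for 53.9% of genes tested there, but the difference did not pass the test (-0.34 ± 0.16, adjusted p = 0.126).

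Shh read 12.5, 12.2 and 14.2 CPM in induced Oct4 E9.5 pools and 22.7, 22.9 and 18.4 CPM in controls (-0.73 ± 0.12, adjusted p = 0.000399). All induced pools were lower, but the share of all genes that lay apart in this way at Oct4 E9.5 is not given here. The Shh call was lost in 1 model over all 22 libraries (0.097). Shh in the Nanog line read 19.7, 18.6 and 18.8 CPM in induced pools and 23.0 and 19.5 CPM in controls, which overlapped (-0.20 ± 0.12, adjusted p = 0.25).

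Foxa2 read 5.39, 5.51 and 6.04 CPM in induced Oct4 E9.5 pools and 9.92, 12.1 and 7.64 CPM in controls (-0.85 ± 0.18, adjusted p = 0.00547). The call was lost without induced 3 (0.0513) or control 2 (0.0767). Foxa2 in the Nanog line read 8.17, 8.52 and 8.35 CPM in induced pools and 6.41 and 7.28 CPM in controls, the induced ones higher (0.25 ± 0.18, adjusted p = 0.319).

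Gli1 read 45.0, 41.8 and 51.1 CPM in induced Oct4 E9.5 pools and 57.8, 56.2 and 60.7 CPM in controls (-0.34 ± 0.07, adjusted p = 0.00557). The call was lost in 1 model over all libraries (0.209) and without induced 3 (0.0518). Gli1 in the Nanog line read 61.2, 68.9 and 55.0 CPM in induced pools and 52.0 and 52.4 CPM in controls, the induced ones higher (0.21 ± 0.09, adjusted p = 0.088). Without induced 3 of the Nanog line both Gli1 (0.0328) and Foxj1 (0.0431) passed. Gli1 overlaps Arhgap9 on the other strand, which averaged at most 7.95 CPM in any group.

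The other members did not pass at E9.5. Ptch1 averaged 188 ± 6.17 CPM in induced and 198 ± 5.12 CPM in control Oct4 pools (-0.09 ± 0.04, adjusted p = 0.214), and 183 ± 3.99 and 179 ± 1.52 CPM in the Nanog line (-0.00 ± 0.06, adjusted p = 0.988, and 0.03 without TMM scaling). Nkx2-2 averaged 1.76 ± 0.270 CPM in induced and 2.63 ± 0.893 CPM in control Oct4 pools (-0.61 ± 0.31, adjusted p = 0.247), and 1.69 ± 0.357 and 1.59 ± 0.457 CPM in the Nanog line. Nkx6-1 read 13.8, 19.7 and 25.5 CPM in induced Oct4 pools and 22.4, 21.6 and 22.9 CPM in controls. Its induced pools were spread on both sides of the controls (-0.21 ± 0.21, adjusted p = 0.633), and in the Nanog line it averaged 16.1 ± 0.698 CPM in induced and 15.9 ± 0.703 CPM in control pools, a log2 fold change below 0 with TMM scaling and above 0 without it. Foxa1, Foxj1 and Chrd had log2 fold changes of -0.04, 0.08 and -0.38 after Oct4 and 0.22, 0.75 and 0.13 after Nanog induction, with adjusted p of 0.0873 to 0.913.

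Of the node and notochord list, 3 of 15 tested genes were higher and 0 lower after Oct4 induction at E9.5 (median 0.32, against 0.00 over all genes). They were Lhx1 (0.89 ± 0.23) and Lefty1 and Lefty2, the last 2 from control means of 0.080 and 0.037 CPM. Of the floor plate and ventral neural tube list, 6 of 12 tested genes were lower and 1 higher after Oct4 induction at E9.5 (median -0.34, against 0.00 over all genes). Spon1, a floor plate guidance protein, averaged 40.7 ± 1.71 CPM in induced and 64.0 ± 4.64 CPM in control pools (-0.66 ± 0.07) and Slit2, a midline repellent, fell by 0.45 ± 0.07. Nkx2-1 (-2.01 ± 0.25), which acts in the ventral forebrain, the hypothalamus and the foregut, and Dbx1 (-1.10 ± 0.16), a factor of V0 progenitors, fell too. Sim1, a marker of V3 neurons and the hypothalamus, rose (0.94 ± 0.18). Of the motor neuron, V2 and V3 list, 1 of 9 fell, the proneural gene Neurog2 (-1.16 ± 0.14), and 1 rose, Evx1 (2.04 ± 0.25), which marks V0 neurons and the tail bud.

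Neural genes outside the ventral domain moved as well. Of the pan neural list 5 of 10 fell and 2 rose after Oct4 induction at E9.5, and its sum was 615 to 640 CPM in induced and 753 to 849 CPM in control pools. The progenitor gene Nes averaged 214 ± 10.05 CPM in induced and 350.4 ± 34.6 CPM in control pools (-0.72 ± 0.07), and Hes5, a Notch target (-0.94 ± 0.10), and the neuronal genes Elavl3 (-1.21 ± 0.12) and Tubb3 (-0.68 ± 0.09) fell too. Irx3 (0.67 ± 0.07) and Ncam1 (0.42 ± 0.09) rose. Of the dorsal list 4 of 12 fell and 1 rose, with Zic1 at -0.99 ± 0.07 and Atoh1 at -2.78 ± 0.53. The part of neural tissue as a whole in the Olig2, Shh and Foxa2 results was not tested.

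After Nanog induction at E9.5 the floor plate list had 0 of 12 genes higher and 1 lower, Slit2 (-0.23 ± 0.08), with a median of -0.02. The node and notochord list had 3 of 11 genes higher, Trh, T and Krt19, and 0 lower, with a median of 0.32. The Hedgehog list had 8 of 24 genes higher and 1 lower (median 0.20, against 0.00 over all genes), in a comparison where 15.4% of all genes were called higher. Gli2 averaged 81.0 ± 6.69 CPM in induced and 55.2 ± 0.344 CPM in control pools (0.52 ± 0.08), Smo rose by 0.32 ± 0.07, and Foxf1a (1.40 ± 0.22) and Foxc2 (0.60 ± 0.13), targets in mesoderm, rose too. Scube2, which helps release Shh, fell (-0.39 ± 0.14). After Oct4 induction at E9.5 that list had 2 of 25 higher and 4 lower, with Foxf1a at 0.70 ± 0.16 and Ccnd2, Ccnd1, Cdon and Gpr161 at -0.18 to -0.39. The pan neural list had 2 of 10 genes higher and 4 lower after Nanog induction, with Pax6 (-0.72 ± 0.09) and Sox2 (-0.47 ± 0.08) among the lower ones.

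**Figure D5:**
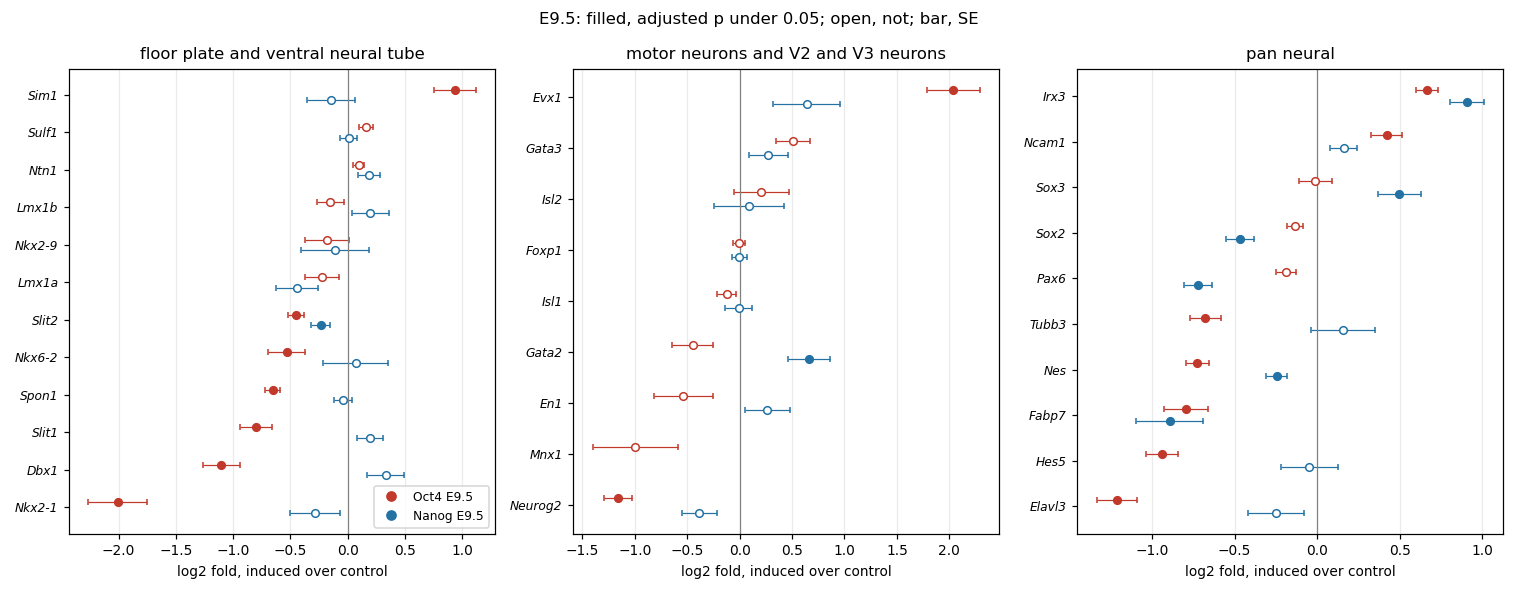
Log2 fold change at E9.5, induced over control (bars are SE), of 3 lists of neural tube genes in the Oct4 and Nanog lines; filled points passed the test. Of the 12 floor plate and ventral genes 6 were lower after Oct4 and 1 after Nanog induction.

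Whether the responses themselves differed was tested as a contrast over 4 groups. At E9.5 the Oct4 response was lower than the Nanog response for 4 of the 10 genes, where 7.92% of 14604 genes were, and higher for 0, where 5.57% of genes were, by edgeR. The difference in log2 fold change was -2.26 ± 0.23 for Olig2 (adjusted p = 2.08e-06), -1.09 ± 0.26 for Foxa2 (0.00687), -0.54 ± 0.12 for Gli1 (0.00364) and -0.53 ± 0.17 for Shh (0.0378). The Shh difference was lost in 10 of its 14 alternatives, and the Gli1 difference in 1 model over all libraries (0.148). At E7.5 the Oct4 and Nanog responses differed for 0 of the 10 genes by edgeR and by DESeq2, where 0.204% of 16680 genes differed. Foxa1 (0.88 ± 0.26, adjusted p = 0.26) and Foxj1 (0.64 ± 0.26, adjusted p = 0.437) had an unadjusted p under 0.05, so the lines were not shown to differ in these genes.

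Between the stages of the Oct4 line the response differed for 6 of the 10 genes, where 6.69% of 16359 genes differed. The E9.5 minus E7.5 difference was 3.08 ± 0.29 for Shh, 0.96 ± 0.21 for Gli1 and 0.67 ± 0.16 for Ptch1, whose response at E9.5 was the smaller fall, and -1.26 ± 0.24 for Foxa2 and -1.23 ± 0.28 for Chrd. In the Nanog line 5 of the 10 differed, where 12.8% of 14897 genes did, with 3.72 ± 0.50 for Shh, 1.42 ± 0.16 for Gli1, 0.98 ± 0.14 for Ptch1 and 1.17 ± 0.31 for Foxa1. The Olig2 difference, called in both lines, rests on 3 and 0 counts in the E7.5 controls of the Oct4 and Nanog lines.

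Across the 22 libraries, where stage and depth go with the groups, the gene whose log2(CPM + 1) followed Olig2 most closely was Pou3f4 (Pearson r = 0.987), then Nr2e1 and Six6, among 12542 genes with a group mean of at least 5 CPM. Nkx6-1 was followed closely by Nr2f1 (0.990) and Tril, Gli1 by Vcan (0.992), Zfp704 and Nhsl2, and Ptch1 by Nrp1 (0.981), Svep1 and Tead1. Shh was followed by Rcsd1 (0.978), Foxf2 and Isl1, Foxj1 by Gcat (0.985), Tuba4a and Scly, and Chrd by Slc35f2 (0.981), Bspry and Mt2. Foxa2 was followed by Prss12 (0.972), Ccne1 and Nr0b1. Foxa1, which varied least between groups, had the lowest value, with Ncoa3 (0.800), Fig4 and Mapk14. Nkx2-2 stayed below the 5 CPM minimum and was not compared.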

How the data were processed

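RNA-seq was made from 22 pools of whole embryos, grouped by line, stage and doxycycline as the labels give them. Per the labels' protocols libraries were read on either of 2 Illumina sequencers, and which of them read each library is not given in the sources used here, nor whether strand was kept. For each gene and pool the authors deposited an expected count estimated by RSEM, with no scaling that the values show. The tools cutadapt, Picard, limma and RSEM 1.17 and the build NCBIM37 come from the submitters' processing notes. RSEM divides shared reads between genes, and Shh values were not whole numbers in 77.3% of libraries. Symbols and exonic lengths came from GENCODE M1, which held 37309 of 37680 gene IDs.

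Expected counts were rounded and tested with edgeR 4.0.16 in R 4.3.3 (quasi-likelihood F test, TMM, filterByExpr, robust dispersions, two-sided, Benjamini-Hochberg over all genes tested, called under 0.05), each comparison on its own groups. Replicates are pools, and p-values measure the spread between pools. SE is the log2 fold change divided by the square root of F. CPM divides unrounded counts by the library total in M counts and is given as mean ± SD over pools. DESeq2 1.42.0, limma-voom 3.58.1, no filter, library totals without TMM, 1 model over all libraries, leaving out each library and a replicate block were alternatives. No 2 libraries of a group agreed within sampling noise (chi-square per degree of freedom of 1.6 to 67.1 over genes with at least 20 counts).

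At Oct4 E7.5 same-numbered induced and control pools deviated together (correlations of 0.324, 0.339 and 0.101 over 10845 genes), so the numbers were taken to pair them there. In Nanog E9.5 and between the stages they did not, and Nanog E7.5 and Oct4 E9.5 groups share only 1 number, too few for a block. The main fit of Oct4 E7.5 did not use the pairing, which entered only the replicate block. Members and the 12 other gene lists were chosen with earlier results of these data known; 175 list entries were matched by symbol, and a few genes are not reported here and were left out of the lists' counts. The 10 members are named throughout, and from each list up to 4 called genes per direction with the lowest p in an induction. Noto was named after its values were seen, as were T, Gsc and Lefty1 at E7.5 and Hhip and Sufu at Nanog E7.5. The octamer search was added then too. Intervals and floors cover counting error only.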

Additional observations from a re-analysis of the deposited data

Results flagged for a closer look

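The values here are differences between 2 responses, each response being a log2 fold change of induced over control pools, and each difference passed edgeR's test of the difference itself. Oct4 and Nanog at E9.5 differed in 4 members, with the Oct4 response minus the Nanog response at -2.26 for Olig2, -1.09 for Foxa2, -0.54 for Gli1 and -0.53 for Shh. The Olig2 and Foxa2 differences passed under every alternative run. The Shh difference passed in 4 of 14 alternatives, with adjusted p of 0.0554 to 0.443 in the other 10.

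In the Oct4 line the E9.5 response minus the E7.5 response was 3.08 for Shh, 0.96 for Gli1, 0.67 for Ptch1, -1.26 for Foxa2, -1.23 for Chrd and -5.57 for Olig2. The Chrd difference was lost without E9.5 induced 3 (adjusted p = 0.0592) or E9.5 control 3 (0.0509). The Ptch1 difference was lost without any 1 of 5 libraries (0.0511 to 0.0644). Olig2 had 25 counts in induced and 3 in control pools at E7.5.

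In the Nanog line the E9.5 response minus the E7.5 response was 3.72 for Shh, 1.42 for Gli1, 1.17 for Foxa1, 0.98 for Ptch1 and -5.71 for Olig2. The Foxa1 difference was lost without any 1 of 5 libraries (0.062 to 0.149). The Olig2 value is a fitted one against E7.5 controls with 0 counts and is no bound, and it was lost without E7.5 control 3 (0.0869).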

How the results depend on the processing

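Of the counts of called genes or members under an alternative 335 stayed within 1.5 times of the value reported and 49 did not. Of the member values 1127 kept direction and call, 46 lost the call, 9 gained one and 43 changed sign, none of which was called; the causes were not tested. At E7.5 genes called after Oct4 were 1638 in 1 model over all libraries, against 991, and after Nanog 1721 with no filter and 2737 in 1 model, against 1099, with 2 members higher by DESeq2, 2 with no filter and 3 in 1 model, against 1. At E9.5 they were after Oct4 715 by DESeq2 and 312 in 1 model, against 1297, with 2 members lower in 1 model against 4, and after Nanog 2414 and 1958, against 3772. The lines' responses differed at E7.5 in 244 genes by DESeq2, 56 with no filter and 177 in 1 model, against 34, and at E9.5 in 229 in 1 model, against 1970, with 2 members lower against 4. Without TMM the sign turned for Ptch1 (0.034) and Nkx6-1 (0.019) in Nanog E9.5 and for Ptch1 in Nanog controls (0.0024). With the replicate block it turned in Nanog E9.5 for Ptch1 (0.0071), Nkx6-1 (0.012) and Nkx2-2 (-0.12). The block gave 1287 genes at Oct4 E7.5, 3359 at Nanog E9.5, 11406 in Oct4 and 9179 in Nanog controls between stages, and changed no member's call but that of Foxa2 at Oct4 E7.5; in the last 3 the samples share only a number. Leaving out 1 library gave 438 to 1101 genes for Oct4 E7.5 (1 to 2 members higher), 161 to 1383 for Nanog E7.5 (0 to 2 higher, 1 to 4 lower), 625 to 1290 for Oct4 E9.5 (2 to 4 lower) and 1482 to 3487 for Nanog E9.5 (0 to 2 higher). For the differences it gave 16 to 102 between the lines at E7.5, 837 to 2178 at E9.5 and 807 to 2376 between the Nanog stages (0 to 1 member lower). Left out 1 library at a time, uncalled log2 values crossed 0 at Oct4 E7.5 for Foxa1 (-0.14 to 0.017), at Nanog E7.5 for Foxj1 (-0.16 to 0.41), at Oct4 E9.5 for Foxa1 (-0.096 to 0.042) and Nkx6-1 (-0.48 to 0.0502), and at Nanog E9.5 for Chrd (-0.26 to 0.48), Ptch1 (-0.021 to 0.0077), Nkx2-2 (-0.22 to 0.36) and Nkx6-1 (-0.0600 to 0.026). So did the Oct4 minus Nanog differences at E7.5 of Shh (-0.12 to 1.52), Chrd (-0.28 to 0.014), Gli1 (-0.24 to 0.10), Nkx2-2 (-0.42 to 0.47) and Nkx6-1 (-0.92 to 0.041), and at E9.5 of Nkx6-1 (-0.45 to 0.068). The E9.5 minus E7.5 difference did in the Oct4 line for Foxa1 (-0.067 to 0.11), Nkx2-2 (-0.34 to 1.30) and Nkx6-1 (-0.18 to 0.33), and in the Nanog line for Nkx6-1 (-0.62 to 0.33). Where 1 control was left, it was assumed to vary like the other group. Leaving out short and mitochondrial gene models was chosen after seeing the data and was not run for the differences. Depth limits Olig2 at E7.5, which mostly lay near the 3 counts that a count of 0 allows. In Nanog E7.5 libraries it also limits Nkx2-2 (1 to 6 counts) and Nkx6-1 (4 to 19 counts). Shh in induced Nanog E7.5 pools, with 3, 17 and 0 counts, is limited too.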
